A study of Mus musculus with 12 samples.

Results

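The 31 genes described here carry glucose into the cell, split it to pyruvate and lactate, and store it as glycogen. They were taken as a list of pathway members, by a rule that uses no measured value: 3 glucose transporters, 3 hexokinases, 7 enzymes of upper glycolysis, 4 PFKFB enzymes, 4 enzymes of lower glycolysis, 4 genes of lactate exchange and 6 of glycogen. The list was still chosen with earlier results of these data known. All 31 were present in the table of 24197 genes, and all 31 were among the 15265 genes abundant enough to be tested. The tissue was brown fat (brown adipose tissue, BAT), which burns fuel to make heat, from mice of 8 to 10 weeks, and its RNA was sequenced in 4 groups of 3 libraries each. Every animal carried floxed Ebf2 alleles (Ebf2 fl/fl), a gene for a transcription factor of brown fat. Control groups lacked Adipoq-Cre and mutant groups carried it. Adipoq-Cre is a recombinase driven by the promoter of the adipocyte gene Adipoq, so other cells of the tissue are not its target. Each genotype was sampled at room temperature (RT) and after 1 week of cold at 4 °C. Libraries are named by group and number, such as control RT 1. Nothing in the labels states that the libraries of a group came from separate animals, and p-values therefore reflect only the spread among these libraries, part of which may be technical.

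Glucose enters brown adipocytes through Glut4, encoded by Slc2a4, which insulin moves to the cell surface, and through other transporters. Hexokinases trap it as glucose 6-phosphate, phosphofructokinase commits it to glycolysis, and PFKFB enzymes set the level of the phosphofructokinase activator fructose 2,6-bisphosphate. Pyruvate is either oxidised in mitochondria or exchanged with lactate, which crosses the membrane through monocarboxylate transporters. Activated BAT is known for a high glucose uptake, and brown adipocytes keep a glycogen store that turns over when the tissue is stimulated.

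The 12 libraries held between 25835650 and 37927038 counts. Levels are given as CPM, the depth-scaled count, with library sizes scaled by TMM, a correction for composition. A gene is called below an adjusted p of 0.05 in edgeR's quasi-likelihood test, with Benjamini-Hochberg adjustment over all 15265 genes. Groups whose values do not overlap are common among these genes. For genotype this held for 1977 genes higher and 1811 lower at RT, and 1962 and 1825 in the cold. For cold it held for 2883 higher and 2190 lower in controls, and 2541 and 2440 in mutants. The targeted gene did not check the labels at room temperature. Ebf2 stood at 47.4, 64.1 and 32.0 CPM in RT controls and at 65.2, 45.7 and 38.3 CPM in RT libraries labelled mutant, which overlap (log2 fold change 0.06 ± 0.25 SE, edgeR adjusted p = 0.931). In the cold it stood at 52.3, 42.2 and 41.6 CPM in controls and 28.7, 21.6 and 27.0 CPM in libraries labelled mutant, which do not overlap, and the difference was not called (log2 fold change -0.82 ± 0.25 SE, edgeR adjusted p = 0.153). "Mutant" below therefore means libraries labelled so, and every direction between genotypes rests on that label. Skeletal muscle RNA also varied: 20 markers, all 20 in the table, summed to between 92.7 and 26862 CPM in RT controls, 72.3 and 22294 CPM in RT mutants, 185 and 10490.3 CPM in cold controls and 58.3 and 6404 CPM in cold mutants. Of these markers 0 were called in any comparison by edgeR, DESeq2 or limma-voom, and 0 had an unadjusted edgeR p under 0.05, though their median log2 fold change was -1.11 for genotype at RT, -1.28 for genotype in the cold, -1.94 for cold in controls and -1.96 for cold in mutants. The 4 richest libraries were control RT 1, control RT 3, mutant RT 3 and control cold 3. Of the 20 markers 6 were at 0 counts in mutant RT 2, 3 in mutant cold 1 and 1 in control RT 2. Ckm, the muscle creatine kinase, was at 0 in mutant RT 2 and mutant cold 1. Mutant cold 3 stood apart in another way, with 219 CPM of 4 epithelial markers against 2.27 to 21.2 CPM elsewhere. Its 5 brown adipocyte markers summed to 8324 CPM, against 15103 and 15840 CPM in the other cold mutants. Of these 5, Ucp1 (5864 CPM), Cidea (1595 CPM) and Cox7a1 (237 CPM) were lowest there among cold mutants, and Ppargc1a and Dio2 were highest. In bulk tissue, fewer cells of a type and less RNA per cell cannot be told apart.

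Cold exposure of controls raised much of the pathway. Of the 31 genes, 14 were called higher after 1 week of cold, against 4.31% of all genes tested, and 2 were called lower, against 2.31% of all genes. The median log2 fold change of the 31 was 0.44, with -0.01 for all genes, and 24 of the 31 had a positive value. Together the 31 genes took 2.08, 2.10 and 1.76% of all counts in the RT controls and 3.20, 2.97 and 3.28% in the cold controls, with no overlap. In mutants, 10 of the 31 were called higher, against 10.0% of all genes, and 2 lower, against 7.42%, with a median of 0.25. Their share of counts was 2.06, 2.16 and 2.19% at RT and 2.65, 3.06 and 2.41% in the cold. Called higher in both genotypes were 7 genes (Hk1, Gpi1, Pfkl, Pfkp, Pgk1, Pgam1 and Ugp2), which is 50% of the 14 and 70% of the 10, and Pfkfb3 was called lower in both. The overlap over all genes was not counted.

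**Figure D1:**
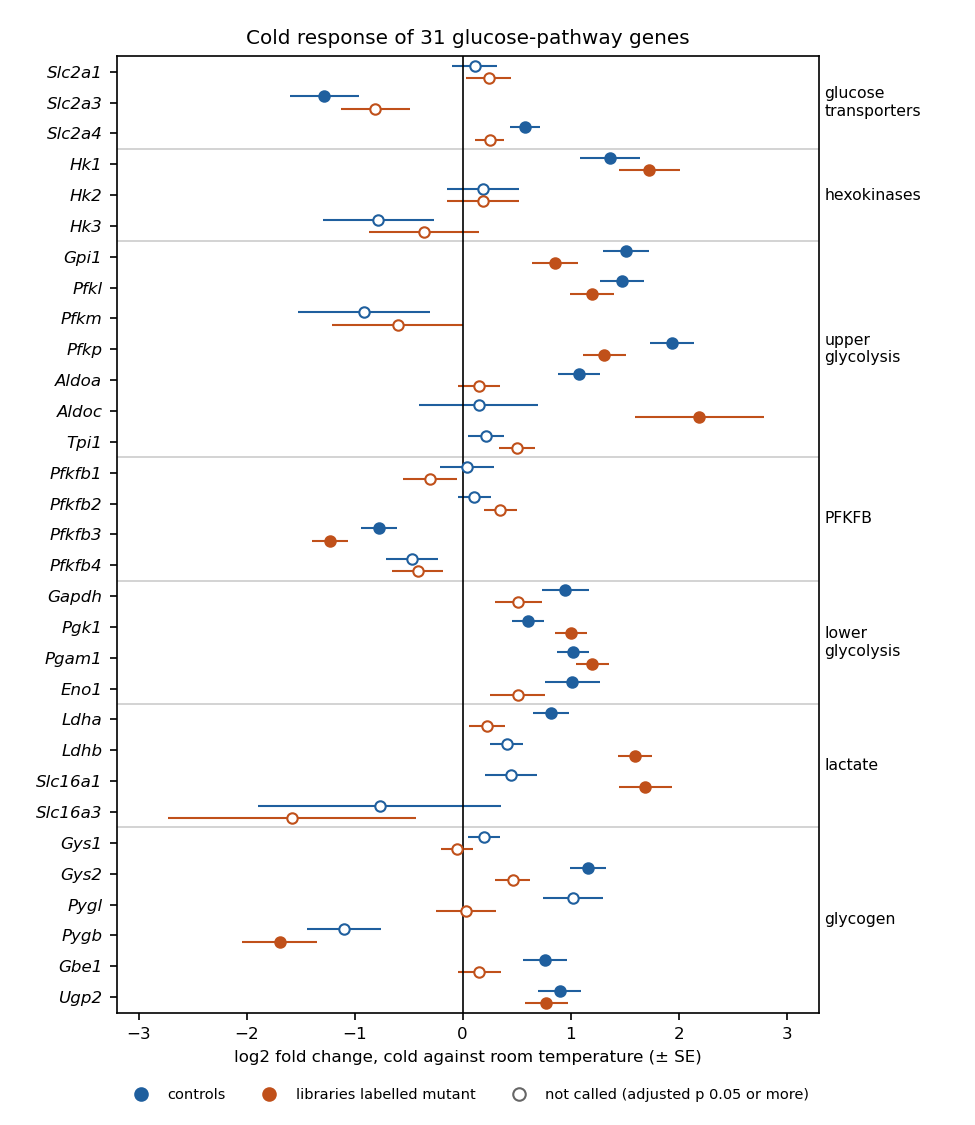
Log2 fold change of cold against room temperature (x axis, ± SE) for each of the 31 genes (rows, grouped by step of the pathway) in controls (blue) and in libraries labelled mutant (orange), with filled points for called genes. Filled blue points lie to the right for 14 genes and to the left for Slc2a3 and Pfkfb3, and Ldhb and Slc16a1 have filled points in mutants and open ones in controls.

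The count in controls depended on single libraries, and so did the count over all genes. For the 31 it was 6 higher without control RT 3, 7 without control cold 1, 6 without control cold 2 and 5 without control cold 3. Over all genes, 1010 of 15265 were called in either direction with every library in. In those fits, in the same order, it was 396 of 15567, 414 of 15576, 324 of 15568 and 313 of 15598. The lower count was 0 without control RT 2 or control cold 3 and 1 without control RT 1, control RT 3, control cold 1 or control cold 2. Gpi1, Pfkl, Pfkp, Pgam1 and Gys2 were called in controls whichever single library was left out. Leaving out the 4 muscle-rich libraries left 1 RT control, with its spread taken from the other groups. A count of calls in controls says little in that fit. The median of the 31 in controls stayed at 0.44. In mutants that fit called 7 higher and 2 lower. With the summed muscle markers as a covariate, 15 were called higher and 2 lower in controls, and 11 and 2 in mutants. Without mutant cold 3, 11 of the 31 were called higher and 3 lower in mutants, with a median of 0.33. In that fit 3630 of 15506 genes were called in either direction.

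Of the 3 glucose transporters, Slc2a4 was by far the most abundant per kilobase of exon and rose in cold controls. Slc2a4 stood at 447, 476 and 402 CPM in RT controls and 652, 634 and 692 CPM in cold controls, with no overlap, a log2 fold change of 0.58 ± 0.14 (SE, edgeR adjusted p = 0.0284). In mutants its values were 492, 554 and 597 CPM at room temperature and 594, 707 and 654 CPM in the cold, which overlap (log2 fold change 0.25 ± 0.14 SE, edgeR adjusted p = 0.237). The call in controls was lost without control RT 1, control RT 3, mutant RT 2, control cold 1, control cold 2, control cold 3 or mutant cold 1 (edgeR adjusted p from 0.0503 to 0.125). Slc2a3, which encodes the high-affinity transporter Glut3 found in neurons and leukocytes, fell in cold controls from 6.06, 5.92 and 4.26 CPM to 2.93, 1.84 and 1.90 CPM (log2 fold change -1.28 ± 0.32 SE, edgeR adjusted p = 0.0346), with no overlap. In mutants it went from 2.77, 4.00 and 4.45 to 2.15, 1.38 and 2.86 CPM (log2 fold change -0.81 ± 0.32 SE, edgeR adjusted p = 0.104). The call in controls was lost without control RT 1, control RT 2, control RT 3, control cold 2 or control cold 3 (edgeR adjusted p from 0.0597 to 0.128). The leukocyte markers, of which 10 of the 11 listed were in the table, summed to 85.5 to 157 CPM in RT controls and 97.0 to 263 CPM in cold controls, and their part in the result was not tested. Slc2a1, the widely expressed Glut1, ran from 9.62 to 18.6 CPM over the 12 libraries and was not called in either genotype (log2 fold change 0.11 ± 0.21 in controls and 0.24 ± 0.21 in mutants). On the per-kilobase scale Slc2a4 took 96.8% ± 0.383 (SD, n = 3) of the summed level of these 3 genes in RT controls and 98.0% ± 0.103 in cold controls.

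Hk1 rose in the cold in both genotypes and Hk2, the insulin-responsive isozyme of muscle and fat, did not pass the test. Hk1, the isozyme of most tissues, stood at 22.6, 43.7 and 29.2 CPM in RT controls and 79.5, 83.6 and 82.9 CPM in cold controls (log2 fold change 1.37 ± 0.28 SE, edgeR adjusted p = 0.0155). In mutants it stood at 24.8, 21.4 and 20.9 CPM and 80.2, 43.8 and 98.5 CPM (log2 fold change 1.73 ± 0.28 SE, edgeR adjusted p = 0.00168), and neither genotype's cold values overlapped its RT values. The call in controls was lost without control RT 3, control cold 2 or control cold 3 (edgeR adjusted p from 0.0552 to 0.0665). The call in mutants held in every one of the 22 alternative analyses. Hk2 ranged widely within groups, with 486, 1092 and 449 CPM in RT controls and 624, 809 and 873 CPM in cold controls, so its change of 0.19 ± 0.33 lay within the spread, as did 0.19 ± 0.33 in mutants. Hk2 remained the main isozyme by length-scaled level, at 95.8% ± 1.31 (SD, n = 3) of the 3 hexokinases in RT controls and 92.6% ± 1.29 in cold controls, while Hk1 went from 3.38% ± 0.825 to 7.03% ± 0.990. Hk3, a hexokinase of leukocytes, lay between 0.914 and 3.99 CPM in all libraries and was not called.

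The steps from glucose 6-phosphate to triose phosphate held the 3 largest rises in controls, those of Pfkp, Gpi1 and Pfkl. Gpi1, phosphoglucose isomerase, stood at 907, 863 and 657 CPM in RT controls and 2187, 2144 and 2598 CPM in cold controls (log2 fold change 1.51 ± 0.22 SE, edgeR adjusted p = 0.00284). Its mutant values were 826, 1049 and 858 CPM and 1578, 2124 and 1241 CPM (log2 fold change 0.85 ± 0.21 SE, edgeR adjusted p = 0.0167), again without overlap. That call was lost without mutant RT 1, mutant RT 3, mutant cold 1 or mutant cold 2 (edgeR adjusted p from 0.0535 to 0.0827). The difference between these responses was not called (difference of log2 fold changes of -0.66 ± 0.30 SE, edgeR adjusted p = 0.401). Pfkl, the liver-type phosphofructokinase subunit, stood at 674, 907 and 716 CPM in RT controls and 1968, 2142 and 2292 CPM in cold controls (log2 fold change 1.48 ± 0.20 SE, edgeR adjusted p = 0.00234). In mutants Pfkl stood at 848, 873 and 851 CPM and 1879, 2563 and 1459 CPM (log2 fold change 1.20 ± 0.20 SE, edgeR adjusted p = 0.00211), so each cold library lay above each RT library of its genotype. Pfkp, the platelet-type subunit, had the largest change of the 31 in controls, from 80.7, 135 and 94.9 CPM to 359.6, 425 and 408 CPM (log2 fold change 1.94 ± 0.20 SE, edgeR adjusted p = 0.000711). In mutants it went from 125, 138 and 161 to 363, 402 and 288 CPM (log2 fold change 1.31 ± 0.20 SE, edgeR adjusted p = 0.00112). For both subunits the mutant call held in all 22 alternatives, and the control call in 21, all but the one without the 4 muscle-rich libraries.

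Pfkm, the muscle-type subunit, did not pass the test and was highest in the libraries rich in muscle markers. It stood at 416, 173 and 399 CPM in RT controls, 104, 95.8 and 406 CPM in RT mutants, 132, 116 and 278 CPM in cold controls and 99.8, 111 and 188 CPM in cold mutants. Its 4 highest values were in the 4 muscle-rich libraries named above. Elsewhere it did not keep the order of the markers, which summed to 92.7 CPM in control RT 2 and 1306 CPM in mutant RT 1. By length-scaled level the muscle-type subunit took 53.8, 26.2 and 51.1% of the 3 phosphofructokinase subunits in the RT controls and 10.9, 8.99 and 18.2% in the cold controls. The Pfkl share was 52.7% ± 13.9 (SD, n = 3) in RT controls, 67.2% ± 15.9 in RT mutants, 79.9% ± 4.14 in cold controls and 80.9% ± 6.36 in cold mutants, and the part that muscle RNA plays in these shares was not tested. The Pfkp share went from 3.57% ± 1.33 to 7.42% ± 0.759 in controls.

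Aldoa, the main aldolase, rose in cold controls from 3946, 2942 and 3208 CPM to 6868, 6454 and 8018 CPM (log2 fold change 1.08 ± 0.19 SE, edgeR adjusted p = 0.00842). That call was lost without control cold 3 (edgeR adjusted p = 0.0527). In mutants it stood at 4331, 4869.5 and 5385 CPM at room temperature and 5099, 6558 and 4539 CPM in the cold, which overlap (log2 fold change 0.15 ± 0.19 SE, edgeR adjusted p = 0.641). Between the genotypes there was a difference of log2 fold changes of -0.93 ± 0.27 (SE, edgeR adjusted p = 0.187). That difference was called by DESeq2 (adjusted p = 0.0142) and by limma-voom with quality weights (adjusted p = 0.0241), and not by edgeR. Aldoc, the brain-type aldolase, was scarce, with 0.356, 0.432 and 0.439 CPM in RT mutants and 0.716, 1.16 and 3.73 CPM in cold mutants (log2 fold change 2.19 ± 0.60 SE, edgeR adjusted p = 0.0258). That call was lost without mutant RT 1, mutant RT 2, mutant RT 3 or mutant cold 3 (edgeR adjusted p from 0.0703 to 0.0937). Its values in controls were 1.48, 2.54 and 1.34 CPM and 1.86, 1.18 and 2.90 CPM (log2 fold change 0.15 ± 0.55 SE, edgeR adjusted p = 0.902). Tpi1, triose phosphate isomerase, was not called in controls (0.22 ± 0.17) or in mutants (log2 fold change 0.50 ± 0.17 SE, edgeR adjusted p = 0.0577).

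Of the 4 PFKFB enzymes, Pfkfb3 was the main one by length-scaled level and fell in the cold in both genotypes, against the direction of most of the pathway. It stood at 1094, 1160.0 and 959 CPM in RT controls and 548, 725 and 609 CPM in cold controls (log2 fold change -0.77 ± 0.16 SE, edgeR adjusted p = 0.0188). In mutants it went from 1634, 1525 and 1902 CPM to 725, 801 and 629.5 CPM (log2 fold change -1.23 ± 0.17 SE, edgeR adjusted p = 0.000599), and no cold value reached an RT value of its genotype. The call in controls was lost without control RT 2, control cold 1 or control cold 3 (edgeR adjusted p from 0.0534 to 0.0985). The call in mutants held in all 22 alternatives. Its share of the 4 PFKFB genes was 91.6% ± 1.89 (SD, n = 3) in RT controls and 86.4% ± 2.13 in cold controls. Pfkfb1 (20.7 to 58.5 CPM), Pfkfb2 (18.5 to 30.5 CPM) and Pfkfb4 (5.27 to 14.9 CPM) were not called in any comparison.

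**Figure D2:**
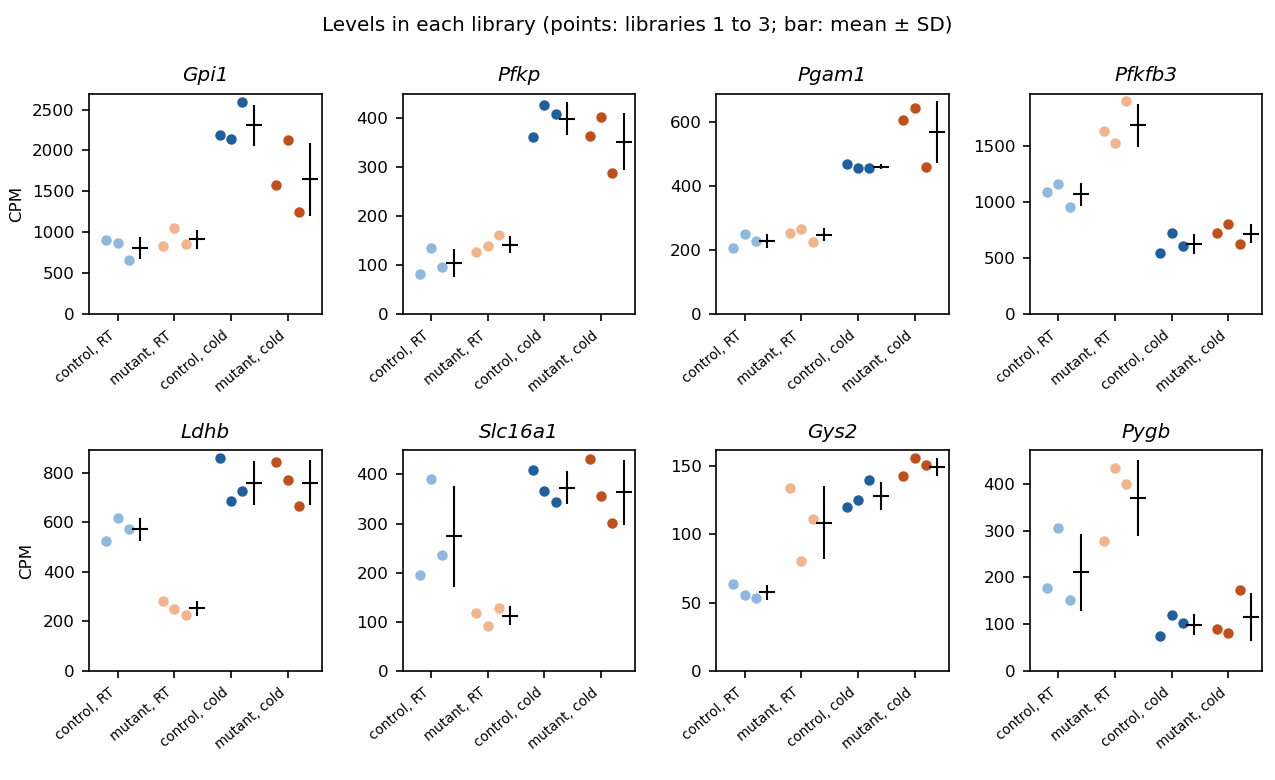
CPM in each library (points, libraries 1 to 3 from left to right) with the mean ± SD beside them, for 8 of the genes in the 4 groups; each y axis starts at 0. Gpi1, Pfkp and Pgam1 are high in both cold groups, Pfkfb3 is highest in RT mutants, Ldhb and Slc16a1 are lowest in RT mutants, and Pygb is low in the cold.

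All 4 enzymes of lower glycolysis were called higher in cold controls, against 4.31% of all genes, and 2 of the 4 in cold mutants, against 10.0%. All 4 had a positive log2 fold change in mutants too, and the change of response was called for 0 of the 4. Gapdh, the dehydrogenase that opens the energy-yielding steps, stood at 2830.1, 1941 and 1952 CPM in RT controls and 4621, 3844 and 4545 CPM in cold controls (log2 fold change 0.95 ± 0.22 SE, edgeR adjusted p = 0.0254). In mutants it stood at 2393, 2698 and 2592 CPM and 3793, 4522 and 2675 CPM, which overlap by 1 library, mutant cold 3 (log2 fold change 0.52 ± 0.22 SE, edgeR adjusted p = 0.128). The control call was lost without control RT 2, control RT 3, control cold 1, control cold 2 or control cold 3 (edgeR adjusted p from 0.0704 to 0.102). Pgk1, phosphoglycerate kinase, stood at 607, 721 and 614 CPM in RT controls and 1065, 897 and 994 CPM in cold controls (log2 fold change 0.61 ± 0.15 SE, edgeR adjusted p = 0.0308). In mutants Pgk1 stood at 457, 505 and 533 and 1051, 1075 and 871 CPM (log2 fold change 1.00 ± 0.15 SE, edgeR adjusted p = 0.000899). The cold and RT values of each genotype did not overlap. The Pgk1 call in controls was lost without control RT 1, control RT 3, mutant RT 2, mutant RT 3, control cold 1, control cold 2, control cold 3 or mutant cold 1 (edgeR adjusted p from 0.0533 to 0.12). Pgam1, phosphoglycerate mutase, stood at 205, 249 and 227 CPM in RT controls and 470.1, 457 and 455 CPM in cold controls (log2 fold change 1.02 ± 0.15 SE, edgeR adjusted p = 0.00347). In mutants Pgam1 went from 254, 266 and 225 CPM to 606, 643 and 460.3 CPM (log2 fold change 1.20 ± 0.15 SE, edgeR adjusted p = 0.000452). It was called in every leave-one-out fit of both genotypes. Eno1, enolase, stood at 2579, 3492 and 1729.7 CPM in RT controls and 5229.7, 4990.1 and 5549 CPM in cold controls (log2 fold change 1.02 ± 0.25 SE, edgeR adjusted p = 0.0356). That call was lost without control RT 1, control RT 3, mutant RT 2, mutant RT 3, control cold 1, control cold 2, control cold 3 or mutant cold 1 (edgeR adjusted p from 0.0579 to 0.129). In mutants the Eno1 values of 2782, 3227 and 2672 CPM and 3833, 5339.7 and 3188 CPM overlap (log2 fold change 0.51 ± 0.25 SE, edgeR adjusted p = 0.196). Gapdh, Aldoa, Eno1, Ldha, Pgk1, Pgam1 and Tpi1 have near-identical processed copies in the mouse genome. How reads with more than 1 match were counted is not known here, so their counts are uncertain to that extent.

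Among the lactate genes, Ldha was called in cold controls, and Ldhb and Slc16a1 were called in cold mutants. Ldha, the lactate dehydrogenase subunit that favours lactate formation, rose in cold controls from 1679, 1925 and 1630.0 CPM to 3139, 2877 and 3199.6 CPM (log2 fold change 0.82 ± 0.17 SE, edgeR adjusted p = 0.0165). In mutants it stood at 1839, 2293 and 2415 CPM and 2561, 2938 and 2168 CPM, which overlap (log2 fold change 0.23 ± 0.17 SE, edgeR adjusted p = 0.396). The control call was lost without control RT 3, control cold 1, control cold 2 or control cold 3 (edgeR adjusted p from 0.0626 to 0.0844). Ldhb, the subunit that favours pyruvate formation and is abundant in oxidative tissue, followed another course. It was not called in controls, at 524, 618 and 571 CPM and 858, 688 and 728 CPM (log2 fold change 0.41 ± 0.15 SE, edgeR adjusted p = 0.13). It rose in mutants from 282, 248 and 225 CPM to 844, 773 and 665 CPM (log2 fold change 1.59 ± 0.16 SE, edgeR adjusted p = 0.000117). Slc16a1, which encodes the monocarboxylate transporter MCT1, was likewise not called in controls, at 195, 391 and 237 CPM and 409, 367 and 344 CPM (log2 fold change 0.44 ± 0.24 SE, edgeR adjusted p = 0.29). In mutants it rose from 117, 91.3 and 129 CPM to 432, 357 and 301 CPM (log2 fold change 1.69 ± 0.25 SE, edgeR adjusted p = 0.000881). Every cold mutant library lay above every RT mutant library for both genes, and both mutant calls held in all 22 alternatives. Slc16a3, the lactate exporter MCT4 of glycolytic muscle, was not called, at 15.0, 1.74 and 14.5 CPM in RT controls and 2.04, 2.23 and 31.6 CPM in RT mutants, and its 4 highest values too were in the muscle-rich libraries. Beside these rises, 5 endothelial markers summed to 509 to 649 CPM in RT mutants and 855 to 865 CPM in cold mutants. Of these, 3 of 5 were called higher, against 10.0% of all genes. In controls they summed to 485 to 732 CPM and 791 to 923 CPM, with 1 of 5 called higher, against 4.31%. The 5 brown adipocyte markers summed to 3031 to 4464 CPM in RT mutants and 5364 to 10222 CPM in RT controls. In the cold they summed to 8324 to 15840 CPM in mutants and 15195.5 to 16951 CPM in controls. Most of the cold control sums was Ucp1, at 11502 to 12209 CPM. With cold in controls 2 of the 5 had a positive log2 fold change and 3 a negative one, 2 of the latter without overlap. In mutants 3 were positive and 2 negative. The part of these marker groups in the results was not tested.

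**Figure D3:**
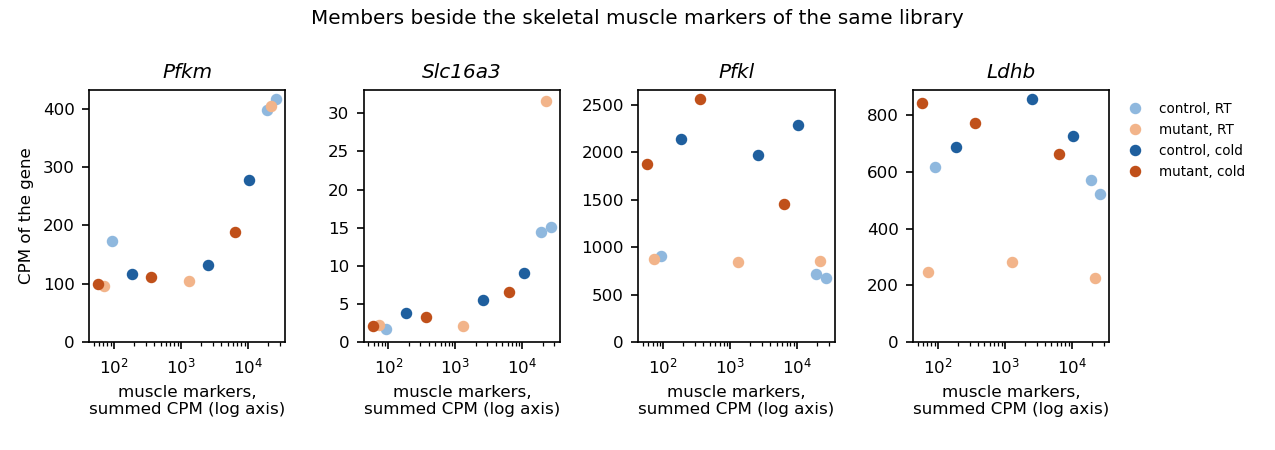
CPM of 4 of the genes (y axis, from 0) against the summed CPM of 20 skeletal muscle markers in the same library (x axis, log scale), with 1 point per library coloured by group. Pfkm and Slc16a3 are highest in the muscle-rich libraries, with Slc16a3 at 31.6 CPM in mutant RT 3, while Pfkl is separated by temperature and Ldhb is low in the 3 RT mutant libraries at any muscle level.

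Sequence upstream of 4 genes of lower glycolysis and lactate exchange is shown because the hypoxia factor HIF and the E-box factors MYC and USF are textbook regulators of glycolytic genes. Promoter windows of 300 bases, from 250 before to 50 after each start, were matched for 28 of the 31 genes (45 windows; RefSeq, build GRCm38.p6, which is not the build the authors aligned to). The letters ACGTG, the core of the hypoxia response element, were searched on both strands, so that a match may be printed as its reverse complement. The E-box letters hold that core on both strands and count as 2 such matches. Matches are in capitals, in stretches that end upstream of the start site, 5′ to 3′ on the strand of the gene.
Pgk1 (chrX:106186935-106186988, + strand): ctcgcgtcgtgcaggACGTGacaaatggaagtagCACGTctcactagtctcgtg
Pgam1 (chr19:41911742-41911776, + strand): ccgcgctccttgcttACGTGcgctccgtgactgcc
Ldha (chr7:46845644-46845789, + strand): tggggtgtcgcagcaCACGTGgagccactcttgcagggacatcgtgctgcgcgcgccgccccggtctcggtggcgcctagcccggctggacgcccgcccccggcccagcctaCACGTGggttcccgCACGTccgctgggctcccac
Slc16a1 (chr3:104638449-104638484, + strand): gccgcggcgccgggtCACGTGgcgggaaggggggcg
The Ldha stretch held both E-boxes of its window and a further core, and the Slc16a1 stretch held 1 E-box. Of the other genes of these steps that were called higher in the cold, Ldhb and Eno1 had no ACGTG in their windows. The only Gapdh match lay after the start. ACGTG stood in a window of 18 of the 28 matched genes (64.3%), and in 21.8% of the 27025 genes with such windows. Genes with more windows have more room for a match. By window it was 48.9% of the 45 and 19.6% of all 32851. Among matched genes called higher in the cold in either genotype it was 9 of 15 (60%), and among the other matched genes 9 of 13 (69.2%). The E-box CACGTG stood in 17.9% of the matched genes and 8.09% of all genes, and the ATF/CREB letters TGACGTCA in 3.57% (Ldha alone) and 2.03%. A match describes letters in a window and is not evidence of binding.

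Among glycogen genes, 3 of 6 were called higher in cold controls, against 4.31% of all genes, and 1 in cold mutants, against 10.0%. The log2 fold change was positive for 5 of the 6 in controls and 4 in mutants. Gys2, the liver-type glycogen synthase, stood at 63.7, 55.4 and 53.5 CPM in RT controls and 120.2, 125 and 139.9 CPM in cold controls (log2 fold change 1.16 ± 0.17 SE, edgeR adjusted p = 0.00291). In mutants it stood at 134, 80.4 and 111 CPM and 142, 156 and 151 CPM, without overlap, and its change was not called (log2 fold change 0.46 ± 0.16 SE, edgeR adjusted p = 0.074). Gys1, the muscle-type synthase, ran from 240.2 to 377 CPM and was not called in any comparison. Ugp2, which makes the UDP-glucose that glycogen synthase uses, stood at 202, 134 and 149 CPM in RT controls and 316, 276 and 313 CPM in cold controls (log2 fold change 0.90 ± 0.20 SE, edgeR adjusted p = 0.0226). That call was lost without control RT 2, control RT 3, control cold 1, control cold 2 or control cold 3 (edgeR adjusted p from 0.0684 to 0.0926). In mutants Ugp2 went from 241, 199.9 and 205 CPM to 411, 425 and 269 CPM (log2 fold change 0.77 ± 0.20 SE, edgeR adjusted p = 0.0202). This one was lost without mutant RT 2, mutant RT 3, mutant cold 1 or mutant cold 2 (edgeR adjusted p from 0.0777 to 0.09). Gbe1, the branching enzyme, stood at 258, 294 and 175 CPM in RT controls and 398, 397 and 437 CPM in cold controls (log2 fold change 0.76 ± 0.20 SE, edgeR adjusted p = 0.0447). The Gbe1 call was lost without control RT 1, control RT 3, mutant RT 1, mutant RT 2, mutant RT 3, control cold 1, control cold 2, control cold 3 or mutant cold 1 (edgeR adjusted p from 0.0589 to 0.162). In mutants its values of 281, 299 and 246 and 286, 381 and 253 CPM overlapped (log2 fold change 0.16 ± 0.20 SE, edgeR adjusted p = 0.649).

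The glycogen phosphorylases, which release glucose 1-phosphate from the polymer, include Pygb and Pygl, which had opposite signs in cold controls. Pygb, the brain-type enzyme, fell in cold mutants from 278, 434 and 399 CPM to 88.6, 80.9 and 174 CPM (log2 fold change -1.69 ± 0.35 SE, edgeR adjusted p = 0.00671). That call held in all 22 alternatives. In controls it went from 178, 305 and 151 CPM to 73.9, 119 and 103 CPM without overlap, and was not called (log2 fold change -1.10 ± 0.34 SE, edgeR adjusted p = 0.0781). Pygl, the liver-type enzyme, stood at 709, 924 and 366 CPM in RT controls and 1162, 1429 and 1468 CPM in cold controls, also without overlap and not called (log2 fold change 1.02 ± 0.28 SE, edgeR adjusted p = 0.0507). Its mutant values were 935, 1233 and 998 CPM and 977, 1280.1 and 973 CPM (log2 fold change 0.03 ± 0.28 SE, edgeR adjusted p = 0.955). The muscle-type Pygm, not among the 31 genes, stood at 586, 6.83 and 492 CPM in RT controls, and over the 12 libraries from 3.94 to 629 CPM. Of the length-scaled level of Pygb and Pygl alone, Pygb took 31.9% ± 5.33 (SD, n = 3) in RT controls, 33.3% ± 3.28 in RT mutants, 9.40% ± 1.18 in cold controls and 13.4% ± 6.27 in cold mutants. The Gys2 share of the 2 synthases was 27.4% ± 1.79, 36.5% ± 8.58, 42.4% ± 0.663 and 45.3% ± 2.20 in the same order.

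**Figure D4:**
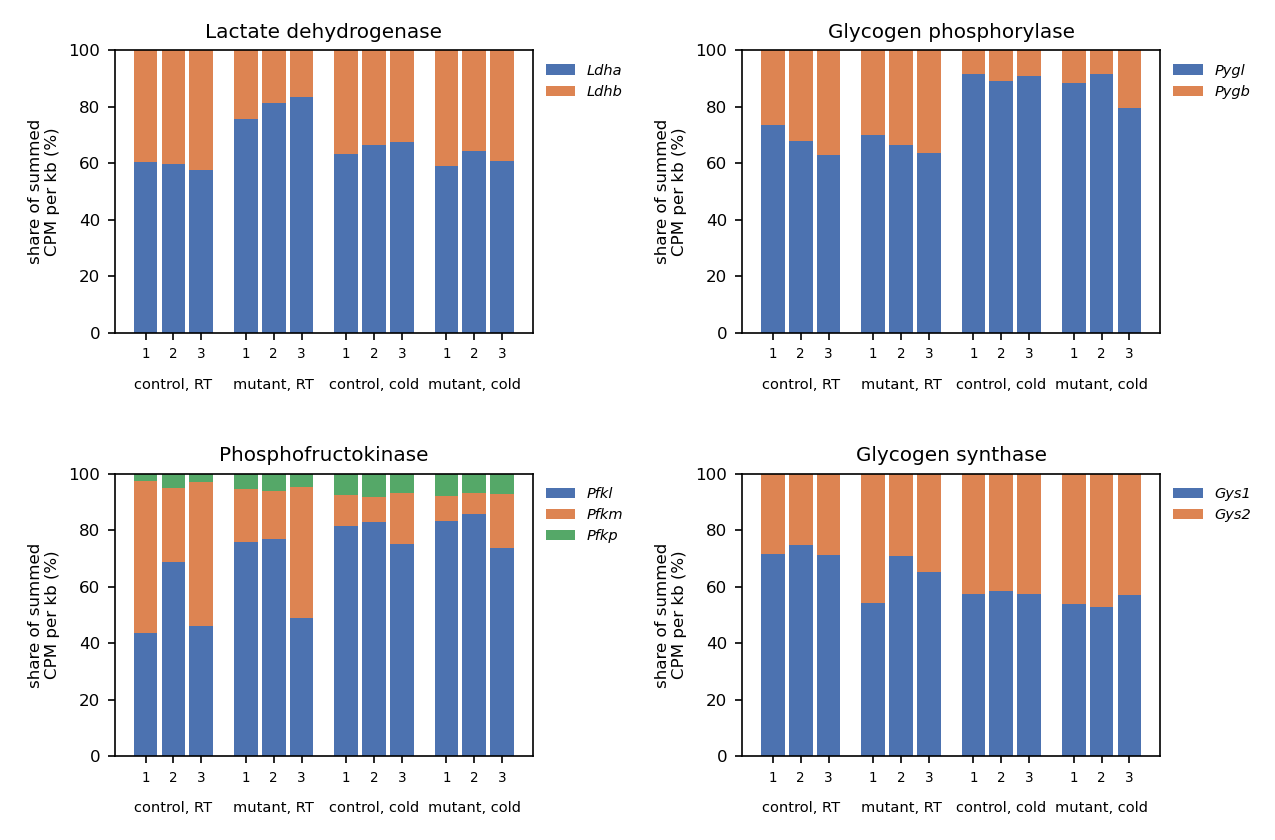
Share of the summed CPM per kilobase of exon (y axis, 0 to 100%) that each isozyme took in each library (bars, libraries 1 to 3 of the 4 groups) in 4 enzyme families. The Ldhb share falls to 19.8% on average in RT mutants, the Pygb share, counted over Pygb and Pygl without Pygm, is small in the cold, and the Pfkm share differs from library to library within a group.

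Between genotypes at room temperature, 2 of the 31 genes were called higher in mutants, against 3.92% of all genes tested, and 2 lower, against 2.32%. The median of the 31 was 0.17, with -0.04 for all genes. Ldhb was lower in RT mutants, at 252 ± 28.6 CPM (SD, n = 3) against 571 ± 46.9 CPM in RT controls (log2 fold change -1.18 ± 0.15 SE, edgeR adjusted p = 0.00148). Slc16a1 was lower too, at 112 ± 19.2 CPM against 274 ± 103 CPM (log2 fold change -1.29 ± 0.24 SE, edgeR adjusted p = 0.00917). The 3 mutant values of each gene, printed above, lay below all 3 control values. Ldhb then took 19.8% ± 4.15 of the lactate dehydrogenase level per kilobase in RT mutants, against 40.8% ± 1.47 in RT controls, 34.2% ± 2.15 in cold controls and 38.6% ± 2.71 in cold mutants. Leaving out single libraries cost the Slc16a1 call only without mutant RT 2 (edgeR adjusted p = 0.056) and the Ldhb call never. Without the 4 muscle-rich libraries Slc16a1 was still called lower, at -1.90 (edgeR adjusted p = 0.0270), and Ldhb was not, at -1.22 (edgeR adjusted p = 0.0888).

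Gys2 and Pfkfb3 were the 2 genes called higher in RT mutants. Gys2 stood at 109 ± 26.9 CPM (SD, n = 3) against 57.5 ± 5.39 CPM in RT controls (log2 fold change 0.92 ± 0.17 SE, edgeR adjusted p = 0.00692), with every mutant value above every control value. Gys2 kept this call whichever single library was left out and lost it without the 4 muscle-rich libraries (0.96, edgeR adjusted p = 0.211). Pfkfb3 stood at 1687 ± 194 CPM against 1071 ± 102 CPM, also without overlap (log2 fold change 0.66 ± 0.16 SE, edgeR adjusted p = 0.0353). The Pfkfb3 call was lost without control RT 1, control RT 2, control RT 3, mutant RT 1, mutant RT 2, mutant RT 3, control cold 1, control cold 2, control cold 3 or mutant cold 1 (edgeR adjusted p from 0.0524 to 0.158), which is 10 of the 12 libraries, and without the 4 muscle-rich libraries (0.45, edgeR adjusted p = 0.537). The count of genes called higher in RT mutants was 10 of 31 with limma-voom and quality weights, against 10.8% of all genes by that tool, which added Slc2a4, Pfkp, Aldoa, Ldha, Gys1, Pygl, Pygb and Ugp2. Aldoc was not called (log2 fold change -2.12 ± 0.60 SE, edgeR adjusted p = 0.0584), although its values of 0.356, 0.432 and 0.439 CPM in RT mutants lay below 1.48, 2.54 and 1.34 CPM in RT controls.

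In the cold no member passed the test between genotypes: 0 of the 31 were called higher in mutants, against 0.727% of all genes, and 0 lower, against 0.393%. At an unadjusted p under 0.05, which 15.3% of all genes met, there was 1, Gpi1 (log2 fold change -0.49 ± 0.21 SE, edgeR adjusted p = 0.297), DESeq2 called 0 (4.89% of all genes), and limma-voom with quality weights called 1 higher (4.40% of all genes), Pgam1 (0.41, adjusted p = 0.0242). The median of the 31 was -0.04, with -0.01 for all genes. For the genes that differed at room temperature, the cold differences were 0.00 ± 0.15 for Ldhb, -0.04 ± 0.24 for Slc16a1, 0.22 ± 0.16 for Gys2 and 0.20 ± 0.16 for Pfkfb3 (± SE). In cold mutants Ldhb stood at 760.4 ± 90.0 CPM (SD, n = 3) and in cold controls at 758 ± 89.1 CPM, which overlap.

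The change of the cold response with genotype was called for 1 gene higher, Ldhb, against 0.295% of all genes, and for 0 lower, against 0.183%. For Ldhb the cold response was larger in mutants, with a difference of log2 fold changes of 1.19 ± 0.22 (SE, edgeR adjusted p = 0.0449). This call rested on single libraries: it was lost without control RT 2, control RT 3, mutant RT 1, mutant RT 2, mutant RT 3, control cold 1, control cold 2, control cold 3, mutant cold 1 or mutant cold 2 (edgeR adjusted p from 0.0628 to 0.171), with the replicate number as a block (edgeR adjusted p = 0.0551), with no filter on low counts (0.0520) and without the 4 muscle-rich libraries (0.254). Its estimate stayed between 1.11 and 1.32 in all of these fits and those with other tools. At an unadjusted p under 0.05, which 12.2% of all genes met, edgeR held 9 of the 31: Ldhb, Slc16a1 (1.25 ± 0.34) and Aldoc (2.05 ± 0.81) with a larger response in mutants, and Gpi1, Pfkp, Aldoa, Ldha, Gys2 and Pygl with a smaller one. All 6 glycogen genes had a negative value, and none was called.

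Around these 31 genes stood a list of 104 other genes of glucose handling, of which 103 were in the table and 96 were tested. Between genotypes 8 (8.33%, against 3.92% of all genes) were called higher and 1 (1.04%, against 2.32%) lower in RT mutants. In cold mutants 1 was called higher (1.04%, against 0.727%) and 1 lower (1.04%, against 0.393%). With cold, 14 (14.6%, against 4.31%) were called higher and 4 (4.17%, against 2.31%) lower in controls. In mutants 14 (14.6%, against 10.0%) were called higher with cold and 7 (7.29%, against 7.42%) lower, the latter share being near that of all genes. For the change of response edgeR called 0, against 0.295% of all genes higher and 0.183% lower. An unadjusted p under 0.05 was met by 17 of the 96, and by 12.2% of all genes. For that change DESeq2 called 0 higher and 9 lower, against 1.75% and 1.76% of all genes, and limma-voom with quality weights 1 and 14, against 3.13% and 4.21%. Fbp2, the muscle-type fructose bisphosphatase, which opposes phosphofructokinase, was lower in cold mutants at 19.9, 15.1 and 10.9 CPM against 67.1, 57.7 and 73.3 CPM (log2 fold change -2.11 ± 0.30 SE, edgeR adjusted p = 0.00855). That call was lost without control cold 3 (edgeR adjusted p = 0.0505).

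At room temperature, genes of that list among those with the smallest adjusted p were higher in mutants. Pcx, pyruvate carboxylase, stood at 2623, 3416 and 2924 CPM in RT mutants and 1189, 1073 and 928 CPM in RT controls (log2 fold change 1.49 ± 0.19 SE, edgeR adjusted p = 0.00141). Irs1, an insulin receptor substrate, stood at 107, 157 and 111 CPM against 45.3, 53.7 and 50.4 CPM (log2 fold change 1.33 ± 0.21 SE, edgeR adjusted p = 0.00359). Irs1 fell in cold mutants to 49.1, 34.0 and 57.9 CPM (log2 fold change -1.41 ± 0.21 SE, edgeR adjusted p = 0.000881). Ppp1r3g, which directs a phosphatase to glycogen, stood at 6.31, 11.7 and 2.88 CPM against 1.26, 0.726 and 1.49 CPM (log2 fold change 2.58 ± 0.46 SE, edgeR adjusted p = 0.0069). The mutant and control values of these 3 genes did not overlap.

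Cold moved further genes of that list in both genotypes. Bsg, basigin, the partner that brings MCT1 to the membrane, rose in controls from 508, 615 and 544 CPM to 1679, 1598 and 1686 CPM (log2 fold change 1.57 ± 0.15 SE, edgeR adjusted p = 0.000452). In mutants Bsg rose from 436, 530.4 and 573 to 1479.6, 1545 and 1285 CPM (log2 fold change 1.49 ± 0.15 SE, edgeR adjusted p = 0.000151). Egln1, an oxygen-sensing prolyl hydroxylase, rose in controls from 168, 227 and 198 CPM to 457, 509 and 551 CPM (log2 fold change 1.35 ± 0.16 SE, edgeR adjusted p = 0.00143). In mutants Egln1 rose from 178, 168 and 192 to 563, 659 and 476 CPM (log2 fold change 1.65 ± 0.16 SE, edgeR adjusted p = 0.000119). Slc16a7, which encodes the transporter MCT2, fell in controls from 12.9, 34.4 and 19.7 CPM to 3.20, 3.75 and 4.88 CPM (log2 fold change -2.50 ± 0.34 SE, edgeR adjusted p = 0.00231). In mutants Slc16a7 fell from 17.4, 30.2 and 19.2 to 3.84, 3.91 and 4.79 CPM (log2 fold change -2.41 ± 0.34 SE, edgeR adjusted p = 0.000787). None of these groups overlapped, and every call held whichever single library was left out. Pgd, of the pentose phosphate pathway, rose in cold controls from 512, 451 and 264 CPM to 1270.3, 1249.9 and 1518 CPM (log2 fold change 1.72 ± 0.26 SE, edgeR adjusted p = 0.00353).

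**Figure D5:**
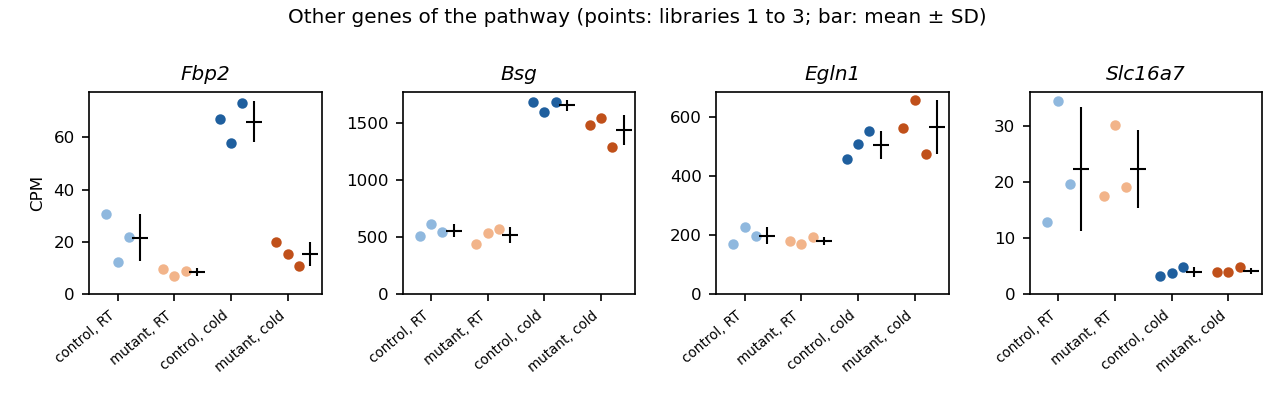
CPM in each library (points, libraries 1 to 3) with the mean ± SD beside them for Fbp2, Bsg, Egln1 and Slc16a7 in the 4 groups; each y axis starts at 0. Fbp2 is highest in the 3 cold control libraries, and Bsg and Egln1 are high and Slc16a7 low in all 6 cold libraries.

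Levels of the 31 genes spanned a wide range. Per kilobase of exon, the means in RT controls were 907 CPM for Aldoa, 542 for Gapdh, 527 for Ldha, 483 for Eno1 and 364 for Ldhb, and at the low end 0.548 for Aldoc and 0.747 for Slc2a3. Called in at least 1 comparison were 20 of the 31 genes, and Slc2a1, Hk2, Hk3, Pfkm, Pfkfb1, Pfkfb2, Pfkfb4, Tpi1, Slc16a3, Gys1 and Pygl in none. That share was not counted over all genes, so the 20 cannot be weighed against it. The largest all-gene share in a single comparison was 17.4% in either direction, for cold in mutants. Some exons lie under other genes, and their reads cannot be told apart here. On the other strand, with no strand setting given, 11.5% of the Gpi1 exon length in the reference annotation overlaps Gm26762. On the same strand, 17.4% of that of Pfkfb2 overlaps Gm29427 and 10.2% of that of Pfkm overlaps Gm26513. Of 5 adipocyte markers, 3 were called higher in mutants than in controls at room temperature (3.92% of all genes) and 0 in the cold (0.727%). With cold 1 was called lower in controls (2.31% of all genes) and 3 in mutants (7.42%). Of 5 brown adipocyte markers, 1 was called lower in mutants than in controls at room temperature (2.32% of all genes) and 0 in the cold (0.393%). With cold 1 was called higher in controls (4.31% of all genes) and 2 in mutants (10.0%). At room temperature 3 of these 5 lay lower in mutants without overlap, as did 1811 of all 15265 genes, and 2 had a positive log2 fold change. The part of cell make-up in the results above was not tested.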

How the data were processed

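RNA of brown adipose tissue was measured in 12 libraries in 4 groups of 3. The authors deposited raw counts per gene, with a column for each library. The submitters' processing notes name STAR, featureCounts and build mm9. The kit was NEB Next Ultra RNA, per the labels' protocols. For versions, annotation, strandedness and multimapper handling the entry is: not given in the sources used here. Columns of unmapped samples numbered 0.

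Testing used edgeR 4.0.16 (R 4.3.3): filterByExpr (minimum count 10, minimum total 15), which kept 15265 of 24197 genes, TMM, robust dispersion and the robust quasi-likelihood F-test in legacy mode over all 12 libraries, 1 coefficient per group, 5 contrasts. Tests are two-sided. Standard errors are those implied by the F statistic. The code was tested on simulated data. Between replicates the chi-square per degree of freedom was 40.6 to 249, so no 2 replicates agreed within sampling noise. At these depths 3 counts correspond to 0.0791 to 0.116 CPM, and such floors cover counting error only. CPM per kilobase uses the summed exon length of the GENCODE annotation of GRCm38, a build other than the authors', and isozyme shares were taken from it with no test. That length joins every annotated exon of a gene, at 1570 bases for Ldhb, 3310 for Ldha and 4133 for Gapdh. Rankings and isozyme shares depend on it. Before length scaling, the RT control means were 1744 CPM for Ldha and 571 CPM for Ldhb.

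The 31 genes, the list of 104 related genes and the marker lists were chosen with earlier results of these data known. Of the related list, at most 4 called genes a comparison were named, those with the smallest adjusted p. A gene that this rule names is not reported here. The 22 alternatives were DESeq2 1.42.0, voom with quality weights (limma 3.58.1), RLE size factors, other low-count filters, fits of the compared groups alone, a fit without robust estimation, a block for the replicate number, a muscle covariate, dropping the 4 muscle-rich libraries, and dropping each of the 12 libraries in turn.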

Additional observations from a re-analysis of the deposited data

Results flagged for a closer look

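The cold response of Ldhb differed between genotypes by a test of the difference itself, with a difference of log2 fold changes of 1.19 ± 0.22 (SE, edgeR adjusted p = 0.0449). The cold change was 0.41 ± 0.15 in controls and 1.59 ± 0.16 in libraries labelled mutant. The 3 room temperature mutant libraries lay at 282, 248 and 225 CPM and the other 9 libraries between 524 and 858 CPM. The call was kept in 8 of 21 alternatives and in 2 of the 12 that leave out 1 library, those without control RT 1 and without mutant cold 3.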

How the results depend on the processing

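No result reversed its direction in any alternative run. For the genes named as called, 442 of 458 values kept their call in the settings other than leaving out libraries, 509 of 612 when 1 library was left out, and 19 of 51 without the 4 muscle-rich libraries. The counts of the 31 genes moved by over 1.5 times in these settings. DESeq2 called 2 higher and 1 lower for the change of cold response with genotype. Limma-voom with quality weights called 10 higher between genotypes at room temperature, 1 higher in the cold, and 2 higher and 5 lower for the change of response. Without a filter on low counts 1 was called higher between genotypes at room temperature and 0 for the change of response. With only the groups compared 1 was called higher at room temperature. Counts moved without the 4 muscle-rich libraries too. That setting leaves 1 control library at room temperature, so its counts for comparisons that use this group are left out. The cause of these moves was not tested.

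Leaving out 1 library gave these ranges: 1 to 2 higher and 1 to 3 lower between genotypes at room temperature, 0 to 0 in the cold in both directions, 5 to 15 higher and 0 to 3 lower for cold in controls, 8 to 11 higher and 2 to 3 lower for cold in mutants, and 0 to 1 higher for the change of response. For cold in controls the count over all genes in these fits ran from 313 of 15598 to 1795 of 15506. For the related list the ranges were 4 to 11 higher and 0 to 1 lower at room temperature, 1 and 0 to 2 in the cold, 7 to 21 and 1 to 5 for cold in controls, and 7 to 18 and 6 to 11 for cold in mutants.

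Groups share replicate numbers, but no label ties a number to a shared animal, litter or day. Deviations of same-numbered libraries from their group means correlated at -0.0306 to 0.781 over comparisons and log scales. A library correlated best with its own number for 1 or 2 of the 3 numbers. The range was -0.0306 to 0.264 for number 1, 0.151 to 0.781 for number 2 and 0.456 to 0.620 for number 3. Muscle markers summed to 6404 CPM or more in each number 3 library and to 358 CPM or less in each number 2 library. These values do not show the numbers to be unrelated, and their cause was not tested. As no label states a pairing, the samples were not treated as paired. With a replicate block 2 were called higher and 2 lower between genotypes at room temperature, 0 and 0 in the cold, 15 and 2 for cold in controls, 11 and 2 for cold in mutants, and 0 and 0 for the change of response. Depth limits Aldoc, Hk3 and Slc2a3, at a few CPM, more than the abundant members. The largest standard errors were those of Slc16a3, Pfkm, Aldoc and Hk3.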
